A study of Mus musculus with 6 samples.

Results

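The genes described here are the 2 corticosteroid receptors, the enzyme that activates their ligand inside cells, and 7 genes that glucocorticoids are known to induce. They were chosen by symbol (Nr3c1, Nr3c2, Hsd11b1, Fkbp5, Sgk1, Tsc22d3, Zbtb16, Klf9, Errfi1 and Pdk4), and all 10 were found among the 52550 genes listed and among the 18795 genes tested. Hippocampal RNA was collected from 3 sham mice, here Sham1 to Sham3, and from 3 TBI mice, TBI1 to TBI3, at 24 h, all male and young adult, of the strain given as C57BL / 6 in the labels and as C57B6/J in the methods, with 1 library per mouse. The TBI mice received a controlled cortical impact of moderate severity over the right parietal bone, and the sham mice had the same anesthesia with ketamine and xylazine, the same skin incision and the same craniotomy without the impact. Every mouse had therefore been through anesthesia and surgery, no unoperated mouse was sequenced here, and the study examined whole hippocampus, exposed on both sides, without stating whether the sides were pooled.

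Corticosterone, the main glucocorticoid of the mouse, is released by the adrenal gland under stress and enters the brain freely. In the hippocampus it meets a pair of nuclear receptors that act as transcription factors, the mineralocorticoid receptor (Nr3c2), which binds it tightly and is abundant in hippocampal neurons, and the glucocorticoid receptor (Nr3c1), which is present in nearly all cell types and is filled when the hormone is high. A hormone-bound receptor enters the nucleus and binds DNA at glucocorticoid response elements, and some of the induced genes, such as Fkbp5, in turn dampen the receptor.

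The response element is an inverted repeat, in its full form the hexamer AGAACA followed after a gap of 3 bases by its reverse complement TGTTCT, which reads the same on both strands. Promoter windows from RefSeq on GRCm38.p6 (250 bases before to 50 bases after a start site) were searched for it, for its looser core (GNACA and TGTNC with the same gap, N being any base), which overlaps it, and for a lone AGAACA on either strand. The windows covered 8 of the 10 genes with 16 windows, and none was at hand for Nr3c1 or Zbtb16. The full palindrome was found in 1 of these windows, at Sgk1, and in 3 of all 32851 windows (0.00913%). The core was found in the same Sgk1 window, against 0.475% of all windows. The hexamer on either strand was found in 3 windows of Sgk1 and 1 of Tsc22d3, 4 of the 16 windows in all, against 19.0% of all windows. The Sgk1 window with the palindrome and the Tsc22d3 window are shown, since among the 8 genes searched only Sgk1 and Tsc22d3 had a match. Every match to these letters is in capitals. The other 2 Sgk1 windows with the hexamer held it once each and are not shown.

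Sgk1, chr10:21993640-21993939, plus strand, the palindrome and an upstream lone hexamer in capitals: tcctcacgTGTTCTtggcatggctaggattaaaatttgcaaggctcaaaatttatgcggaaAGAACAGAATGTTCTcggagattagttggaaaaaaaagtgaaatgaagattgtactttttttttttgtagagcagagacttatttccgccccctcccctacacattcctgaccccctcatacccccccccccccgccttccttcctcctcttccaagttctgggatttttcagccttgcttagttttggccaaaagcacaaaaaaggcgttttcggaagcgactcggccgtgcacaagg
Tsc22d3, chrX:140600473-140600772, minus strand, lone hexamer in capitals: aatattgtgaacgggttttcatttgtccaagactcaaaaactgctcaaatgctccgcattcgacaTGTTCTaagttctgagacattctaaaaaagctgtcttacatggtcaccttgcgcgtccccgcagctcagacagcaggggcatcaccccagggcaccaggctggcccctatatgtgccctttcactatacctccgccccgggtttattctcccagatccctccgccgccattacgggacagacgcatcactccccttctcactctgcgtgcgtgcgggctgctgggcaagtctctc

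The palindrome of Sgk1 lay on chromosome 10 from 21993701 to 21993715, 189 bases before the start site of its own window and 965 bases before the last start site of the gene at 21994666. A match in letters is a description and not a measured binding site, and the windows do not reach the distal and intronic elements through which genes such as Fkbp5 are known to be regulated.

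The deposited values were whole-number estimated counts that summed to between 31630936 and 41771872 per library. Levels are given as CPM, the count scaled to the library's total after correction by edgeR's TMM factors (0.970 to 1.02). The groups were set against each other by the quasi-likelihood test of edgeR. A call needed a p under 0.05, a Benjamini-Hochberg adjusted p under 0.1 and a change of more than 1.5-fold either way. Log2 fold changes are positive where TBI was higher.

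Marker genes of brain regions and cell types differed between mice, and TBI1 and Sham2 stood apart in the values given first. Summed over 6 striatal markers, the level was 3691 CPM in TBI1 against 131 to 181 CPM in the other libraries, and Adora2a, a receptor of striatal projection neurons, was at 296 CPM in TBI1 against at most 4.25 CPM elsewhere. In TBI1 the dentate gyrus marker C1ql2 was at 2.45 CPM, against 39.6 to 86.0 CPM elsewhere. Sham2 had the lowest sum of 5 oligodendrocyte markers (2000 CPM, against 6070 to 7450 CPM) and the highest level of the astrocyte filament gene Gfap (4055 CPM, against 541 to 1478 CPM). The astrocyte markers did not move together there, since Slc1a3 (599 CPM, against 655 to 899 CPM) and Gja1 (99.2 CPM, against 177 to 329 CPM) were lowest in Sham2. The 6 choroid plexus markers summed to 2017, 51.2 and 2062 CPM in the sham libraries in order, and to 240, 2344 and 258 CPM in the TBI libraries. Red blood cell markers summed to 601 CPM in TBI2 and 416 CPM in Sham2, against 117 to 204 CPM elsewhere. Markers of microglia and macrophages were highest in TBI1 (470 CPM, against 231 to 316 CPM). Thalamic markers were highest in TBI3 (531 CPM, against 48.1 to 316 CPM). None of the markers of these lists was at 0 in all libraries. Results are therefore also given without Sham2 and TBI1, a choice made after these values were seen. In bulk tissue, fewer cells of a type and less RNA per cell cannot be told apart.

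None of the 10 genes passed the test between TBI and sham, and for most of them the interval of the fold change was wide. The test called 0 of 10, as it called 0 of the 18795 genes tested (0%), and the adjusted p of the 10 genes lay between 0.982 and 0.996. An unadjusted p under 0.05 was reached by 0 of 10, against 4.29% of all genes tested, and DESeq2 with its defaults called 0 of 10, against 0.221% of the genes to which it gave an adjusted p. In 0 of 10 genes were the groups free of overlap, against 10.2% of all genes tested. The mean was higher in TBI in 6 of 10 genes, against 51.4% of all, and the median log2 fold change was 0.11, against 0.0091 over all genes tested. That median was 0.026 without TBI2, 0.21 without Sham1 and 0.29 without TBI1.

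**Figure D1:**
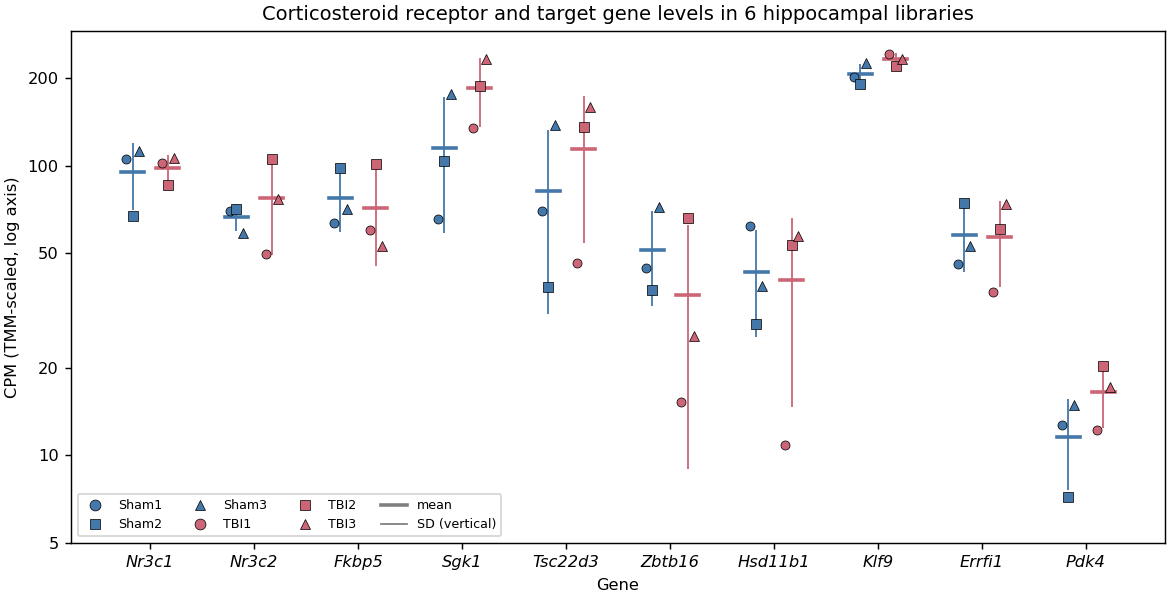
Level of each gene (x axis) in CPM (y axis, log scale) in the 3 sham libraries (blue) and the 3 TBI libraries (red), with the shape giving the replicate number, the horizontal bar the mean and the vertical line the SD. The groups overlapped in all 10 genes; Klf9 was the highest and the most even, and Hsd11b1 ran from 10.8 CPM in TBI1 to 61.7 CPM in Sham1.

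Nr3c1, which encodes the glucocorticoid receptor (ENSMUSG00000024431.14, GRCm38 chromosome 18, minus strand, 39410545 to 39519421, 9 annotated transcripts), was at 106, 67.0 and 113 CPM in Sham1 to Sham3 and at 102, 85.8 and 106 CPM in TBI1 to TBI3. Sham2 was the lowest library and TBI2 the next, and the other 4 lay between 102 and 113 CPM. Sham averaged 95.1 ± 24.6 CPM and TBI 98.0 ± 10.7 CPM (SD, n = 3). The log2 fold change was 0.043 (standard error 0.213, edgeR adjusted p 0.992), and its 95% interval ran from 0.724-fold to 1.47-fold. Without Sham2 the log2 fold change was -0.16 and without TBI3 it was -0.024, so its sign depended on single libraries.

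Nr3c2, which encodes the mineralocorticoid receptor (ENSMUSG00000031618.13, chromosome 8, plus strand, 76899442 to 77245012), was at 69.9, 71.0 and 58.5 CPM in sham and at 49.6, 106 and 76.6 CPM in TBI. The lowest and the highest library were both TBI libraries, TBI1 and TBI2. Sham averaged 66.5 ± 6.92 CPM and TBI 77.3 ± 28.03 CPM (SD, n = 3), giving a log2 fold change of 0.22 (standard error 0.268, edgeR adjusted p 0.982). Without TBI1, the library with striatal markers, it was 0.46, and without TBI2 it was -0.082. Gm10649, on the opposite strand, shares 247 of the 6474 exonic bases of Nr3c2 (3.82%), and whether the counts used strand is not given in the sources used here.

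Exon length here is that of all annotated exons of a gene merged, not that of the transcripts expressed. Per kilobase of exon, both receptors were at similar levels, 12.4 ± 3.20 CPM per kb for Nr3c1 and 10.3 ± 1.07 CPM per kb for Nr3c2 in sham. In TBI they were at 12.8 ± 1.40 and 11.9 ± 4.33 CPM per kb (SD, n = 3). The ratio of Nr3c2 to Nr3c1 per kilobase was 0.785, 1.26 and 0.617 in the sham libraries in order, and 0.578, 1.46 and 0.856 in the TBI libraries. The groups overlapped, and the ratio was above 1 in 1 library of each group. The log2 ratio differed by 0.082 between the group means, with an SD of 0.523 in sham and 0.672 in TBI. It differed by -0.27 without TBI2, -0.15 without Sham3, 0.027 without Sham1, 0.37 without Sham2, 0.40 without TBI1 and 0.69 without both Sham2 and TBI1, so its sign depended on single libraries.

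Hsd11b1 encodes the reductase that regenerates active corticosterone from its inert keto form inside cells (ENSMUSG00000016194.14, chromosome 1, minus strand, 193221634 to 193264075). Its level was 61.7, 28.3 and 38.5 CPM in sham and 10.8, 53.0 and 57.0 CPM in TBI. TBI1 was the lowest by far, and the other TBI libraries lay within the range of sham. Sham averaged 42.8 ± 17.1 CPM and TBI 40.3 ± 25.6 CPM (SD, n = 3), giving a log2 fold change of -0.090 (standard error 0.603, edgeR adjusted p 0.993) that was 0.36 without TBI1. In the same library the 7 markers of hippocampal fields had a mean deviation of -1.71 log2 units from their mean over the 6 libraries. Of these 7, 6 were lowest in TBI1, and Wfs1, a marker of CA1, was highest there (276 CPM, against 64.4 to 175 CPM). Their part in the low value of Hsd11b1 was not tested.

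Hsd11b1 had the widest range of the 10 genes, 2.51 log2 units. By the root mean square difference of log2 CPM over the 6 libraries, each gene centred on its own mean, the genes closest to it among 18794 were 6430573P05Rik (0.131), Anxa9 (0.230) and Tnfrsf22 (0.233). All 3 were also lowest in TBI1, with 8, 7 and 21 counts there, so their patterns rest on few counts.

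Fkbp5 encodes a co-chaperone that lowers the hormone affinity of the glucocorticoid receptor, and its induction is a widely used readout of receptor activity (ENSMUSG00000024222.16, chromosome 17, minus strand, 28399094 to 28517527). Its level was 63.1, 97.9 and 71.0 CPM in sham and 59.7, 101 and 52.9 CPM in TBI. Sham2 and TBI2 were high, and the other 4 libraries lay between 52.9 and 71.0 CPM. Sham averaged 77.3 ± 18.2 CPM and TBI 71.2 ± 26.0 CPM (SD, n = 3), giving a log2 fold change of -0.12 (standard error 0.287, edgeR adjusted p 0.985). The 95% interval ran from 0.572-fold to 1.48-fold. The value was 0.086 without Sham2 and -0.46 without TBI2.

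Sgk1 encodes a serum- and glucocorticoid-regulated kinase that controls ion channels and transporters (ENSMUSG00000019970.15, chromosome 10, plus strand, 21882184 to 21999903, 13 annotated transcripts). It is the gene whose promoter window, shown above, holds the full palindrome. Its level was 65.5, 104 and 177 CPM in Sham1 to Sham3 and 134, 187 and 234 CPM in TBI1 to TBI3. The lowest libraries were Sham1 and Sham2 and the highest were TBI2 and TBI3, but Sham3 lay above TBI1. Sham averaged 115 ± 56.7 CPM and TBI 185 ± 49.6 CPM (SD, n = 3). The log2 fold change of 0.68 (standard error 0.379) had the smallest p among the 10 genes, 0.117, with an edgeR adjusted p of 0.982. Its 95% interval ran from 0.856-fold to 3.01-fold, so it held both an equal level and a rise of up to 3.01-fold. With 1 library left out the log2 fold change stayed positive, from 0.40 without Sham1 to 1.12 without Sham3.

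Tsc22d3 encodes GILZ, a leucine zipper protein through which glucocorticoids restrain inflammatory transcription (ENSMUSG00000031431.13, chromosome X, minus strand, 140539528 to 140600659). Its level was 69.4, 38.1 and 138 CPM in sham and 46.0, 136 and 159 CPM in TBI. Sham2 and TBI1 were the lowest libraries, and Sham3 lay between TBI2 and TBI3. Sham averaged 81.8 ± 51.0 CPM and TBI 114 ± 59.6 CPM (SD, n = 3). The log2 fold change was 0.47 (standard error 0.584, edgeR adjusted p 0.982). It ran from 0.13 without Sham2 to 1.07 without Sham3. The summed level of 5 thalamic markers was 126, 64.5 and 316 CPM in sham and 48.1, 253 and 531 CPM in TBI. These markers were also lowest in TBI1 and Sham2 and highest in TBI3, and their part in the level of Tsc22d3 was not tested.

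Zbtb16 encodes PLZF, a zinc finger repressor that is strongly induced by glucocorticoids in many tissues (ENSMUSG00000066687.5, chromosome 9, minus strand, 48654297 to 48836222). Its level was 44.3, 37.1 and 71.9 CPM in sham and 15.3, 66.1 and 25.9 CPM in TBI. The highest library was Sham3, closely followed by TBI2, and the lowest were TBI1 and TBI3. Sham averaged 51.1 ± 18.3 CPM and TBI 35.8 ± 26.8 CPM (SD, n = 3). The log2 fold change was -0.52 (standard error 0.542, edgeR adjusted p 0.982). It was -1.32 without TBI2 and -0.15 without TBI1. The 3 libraries with the lowest Zbtb16, TBI1, TBI3 and Sham2, were also those with the lowest sums of choroid plexus markers, 240, 258 and 51.2 CPM. The part of choroid plexus tissue in these values was not tested.

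Klf9, a Krüppel-like transcription factor that responds to glucocorticoid and thyroid hormone in neurons (ENSMUSG00000033863.1, chromosome 19, plus strand, 23141226 to 23168134), was at 202, 192 and 226 CPM in sham and at 243, 220 and 234 CPM in TBI. TBI1 and TBI3 lay above all sham libraries, and TBI2 lay just below Sham3. Sham averaged 206 ± 17.4 CPM and TBI 232 ± 11.4 CPM (SD, n = 3), giving a log2 fold change of 0.17 (standard error 0.110, p 0.170, edgeR adjusted p 0.982). Its 95% interval, from 0.937-fold to 1.35-fold, was the narrowest of the 10 genes. Klf9 and Nr3c1 were the only ones of the 10 whose interval lay wholly inside a 1.5-fold change either way.

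Errfi1 encodes MIG-6, an inhibitor of the EGF receptor (ENSMUSG00000028967.10, chromosome 4, plus strand, 150853919 to 150868892). Its level was 45.7, 74.2 and 53.0 CPM in sham and 36.6, 60.4 and 73.6 CPM in TBI. The lowest library was TBI1 and the highest was Sham2, closely followed by TBI3. Sham averaged 57.6 ± 14.8 CPM and TBI 56.9 ± 18.8 CPM (SD, n = 3). The log2 fold change was -0.019 (standard error 0.295, edgeR adjusted p 0.996), and it was 0.21 without Sham2 and 0.22 without TBI1.

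Pdk4 encodes a mitochondrial kinase that shuts off pyruvate dehydrogenase and so favours the burning of fat (ENSMUSG00000019577.6, chromosome 6, minus strand, 5483351 to 5496309). Its group means were the lowest of the 10 genes, although Hsd11b1 lay below it in TBI1, and its level was 12.7, 7.18 and 14.9 CPM in sham and 12.2, 20.4 and 17.2 CPM in TBI. TBI2 and TBI3 lay above all sham libraries, and TBI1 fell just below Sham1. Sham averaged 11.6 ± 3.99 CPM and TBI 16.6 ± 4.11 CPM (SD, n = 3), giving a log2 fold change of 0.51 (standard error 0.323, p 0.158, edgeR adjusted p 0.982). It ran from 0.26 without Sham2 to 0.73 without Sham3.

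**Figure D2:**
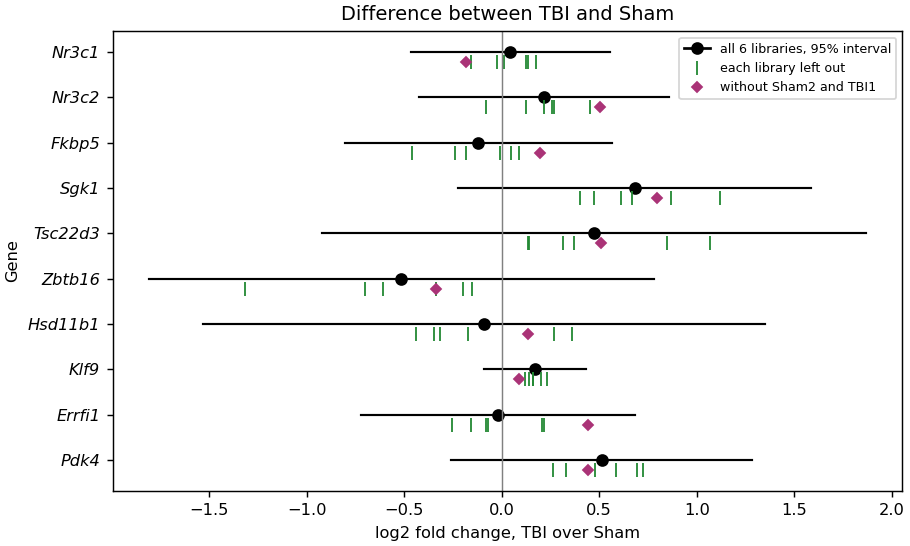
Log2 fold change of TBI over sham (x axis) for each gene (y axis), with all 6 libraries and the 95% interval in black, with each library left out as green ticks, and without Sham2 and TBI1 as purple diamonds. Every black interval crosses 0, and 5 genes had values on both sides of 0 once libraries were left out.

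Per kilobase of exon, the level in sham was highest for Klf9 (42.9 ± 3.62 CPM per kb), followed by Sgk1 (23.5 ± 11.6), Tsc22d3 (18.8 ± 11.7) and Errfi1 (16.1 ± 4.13). Nr3c1 came next, then Nr3c2, Hsd11b1 (10.1 ± 4.03), Zbtb16 (9.67 ± 3.47) and Fkbp5 (8.17 ± 1.93). Pdk4 was the lowest at 3.31 ± 1.14 CPM per kb (SD, n = 3). Klf9 and Pdk4 stood clear of their neighbours by more than the SDs, and the neighbours in between did not. These ranks depend on the merged exon length, which covers 15 annotated transcripts of Fkbp5 and 2 of Klf9.

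The genes varied between mice of the same group. The pooled SD of log2 CPM within groups ran from 0.099 for Klf9 to 1.04 for Hsd11b1, with a median of 0.459, against 0.320 over all genes tested, and it was above that median in 8 of the 10 genes. Hsd11b1 lay at the 90.1 percentile of all genes tested, Tsc22d3 at the 88.3 percentile and Zbtb16 at the 85.2 percentile, while Klf9 lay at the 6.73 percentile. The lowest value of a gene fell in Sham2 or TBI1 for 8 of the 10 genes, 4 in each, against 43.6% of all genes tested. Nr3c1, Tsc22d3, Klf9 and Pdk4 were lowest in Sham2, and Nr3c2, Zbtb16, Hsd11b1 and Errfi1 in TBI1. These 2 libraries stood apart in the striatal and oligodendrocyte markers, while TBI2 and TBI3 were highest in other marker lists.

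**Figure D3:**
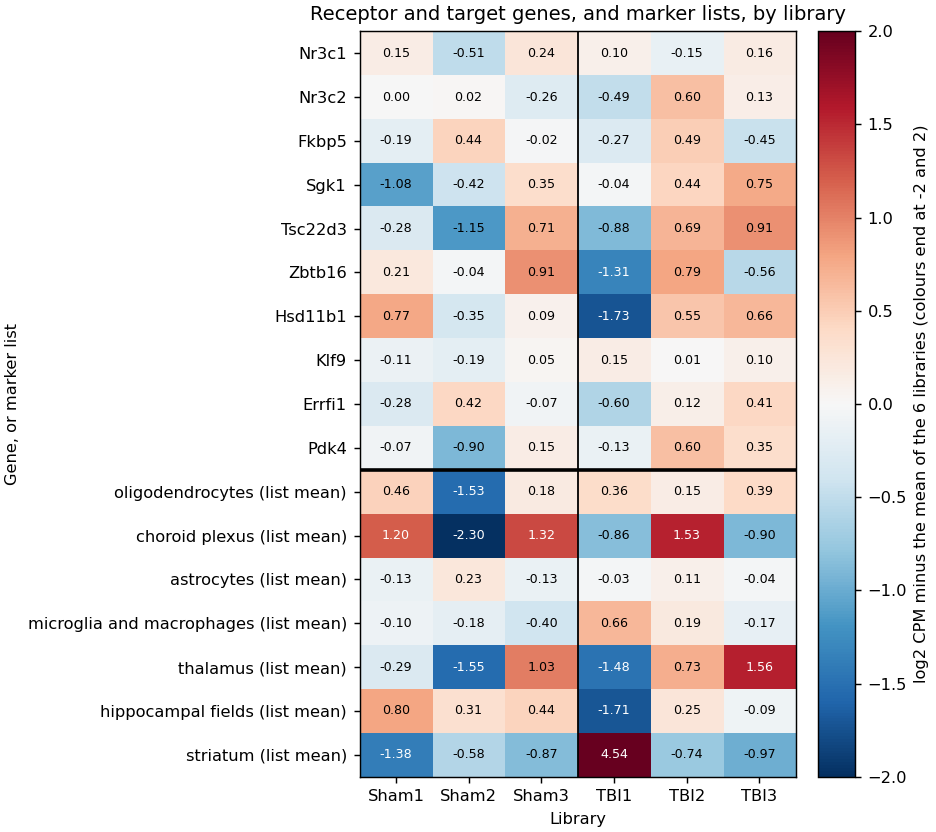
Log2 CPM minus the mean of the 6 libraries (colour and printed value, with colours ending at -2 and 2) for the 10 genes (upper rows) and for the mean of 7 marker lists (lower rows) in each library (x axis). The lowest cell of 8 genes lies in TBI1 or Sham2, TBI1 is 4.54 above the mean for the striatum list, and the targets do not share a single pattern across the libraries.

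Without Sham2 and TBI1, edgeR called 0 of the 10 genes and 3 of all genes tested. The log2 fold changes then were -0.19 for Nr3c1, 0.50 for Nr3c2, 0.13 for Hsd11b1, 0.20 for Fkbp5, 0.80 for Sgk1 and 0.51 for Tsc22d3. They were -0.34 for Zbtb16, 0.086 for Klf9, 0.44 for Errfi1 and 0.44 for Pdk4, and the smallest edgeR adjusted p of the 10 was 0.853. With each library left out in turn, the groups were free of overlap in 0 of 10 genes without Sham1 (against 18.1% of all genes tested), without Sham2 (20.5%) and without TBI3 (17.5%). Sgk1 and Klf9 no longer overlapped without Sham3 (2 of 10, against 20.8%). Without TBI1 this held for Nr3c2, Sgk1 and Pdk4 (3 of 10, against 22.8%), and without TBI2 for Fkbp5, Zbtb16 and Klf9 (3 of 10, against 21.4%). With 2 mice per group left, after both Sham2 and TBI1 were left out, Nr3c2, Sgk1, Errfi1 and Pdk4 no longer overlapped, 4 of 10 genes against 37.1% of all genes tested.

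The wider pathway was described with 5 lists of 70 genes, of which 61 were tested. edgeR called 0 of them, against 0% of all genes, and 3 had an unadjusted p under 0.05, against 4.29% of all genes. DESeq2 with its defaults called 1, Ptgs2, against 0.221% of all genes with an adjusted p. Of 17 chaperones and co-regulators that fold the receptors or carry their signal to the polymerase, every one passed the filter, 9 being higher and 8 lower in TBI, and the log2 fold changes lay between -0.31 and 0.15 with a median of 0.0061 (-0.049 to 0.011 with each library left out). The heat shock protein genes Hsp90ab1 (1422 ± 61.3 CPM in sham, 1269 ± 171 CPM in TBI) and Hsp90aa1 (1336 ± 35.6 and 1371 ± 246 CPM), which encode the chaperone that holds the empty receptor ready for hormone, were the most abundant (SD, n = 3). Their log2 fold changes were -0.16 and 0.037, and that of Hsp90aa1 ran from -0.093 without TBI2 to 0.17 without TBI1. That of Hsp90ab1 ran from -0.28 without TBI1 to -0.098 without TBI3. This list had the smallest within-group SD of the pathway lists, with a median of 0.140 log2 units.

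Of 8 further genes of local steroid metabolism and export, 6 were tested, 4 higher and 2 lower, with 0 at an unadjusted p under 0.05. Hsd11b2, whose product inactivates corticosterone, was at most 0.443 CPM in any library and was not tested. Abcb1a, which encodes the P-glycoprotein pump that keeps synthetic glucocorticoids out of the brain, was at 24.3, 11.9 and 32.7 CPM in sham and at 28.7, 35.6 and 37.4 CPM in TBI (log2 fold change 0.56, standard error 0.354, edgeR adjusted p 0.982). Sham3 lay above TBI1, and the log2 fold change was 0.25 without Sham2 and 0.90 without Sham3. Cyp7b1, a steroid hydroxylase, was at 18.8 ± 5.01 CPM in sham, against 14.6 ± 5.98 CPM in TBI (SD, n = 3). Its log2 fold change of -0.37 was -0.10 without TBI1 and -0.21 without Sham1. It was -0.71 without TBI2 and -0.57 without Sham2.

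In the corticotropin-releasing hormone system, which drives adrenal output and also acts within the hippocampus, 8 of 10 genes were tested, 5 higher and 3 lower, with a median log2 fold change of 0.39. The median was 0.086 without TBI2, 0.20 without TBI3, 0.24 without Sham1 and 0.77 without TBI1. It was 0.044 with the replicate number as a block. The filter kept 9 genes in the fits without TBI3, without Sham1 and without TBI1. Some genes of the list were near the floor, Ucn with 0 counts in TBI2 and Avpr1b with 0 in TBI1. With 10 counts required in every library, 6 genes were tested, with a median of 0.39. Crhbp, whose product binds and neutralizes the hormone, was at 33.9, 43.4 and 26.2 CPM in sham and at 10.95, 22.7 and 12.4 CPM in TBI. All TBI libraries lay below all sham libraries, as in 5.45% of all genes tested, and the log2 fold change was -1.17 (standard error 0.332, p 0.0105, edgeR adjusted p 0.982). It was -0.78 without Sham2 and TBI1. Crhr1, the receptor, was at 8.92 ± 3.84 CPM in sham, against 14.6 ± 9.77 CPM in TBI (SD, n = 3), with TBI3 at 25.9 CPM and the other TBI libraries within the range of sham. Its log2 fold change of 0.71 was -0.00030 without TBI3. Slc17a7, the vesicular glutamate transporter of hippocampal pyramidal and granule neurons, was also lower in all TBI libraries (1575 ± 289 CPM in sham, 910 ± 261 CPM in TBI, p 0.0138, edgeR adjusted p 0.982), and its part in the value of Crhbp was not tested. Of the 6 neuronal markers 3 were higher and 3 lower in TBI, and Slc17a7 alone had an unadjusted p under 0.05. Their log2 fold changes ran from -0.79 for Slc17a7 (-0.52 without Sham2 and TBI1) to 0.79 for Gad2 (0.093 without TBI1).

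Of 25 other glucocorticoid-induced genes, 24 were tested, 16 higher and 8 lower in TBI. Their median log2 fold change was 0.19, against 0.0091 over all genes, and only Pik3r1 had an unadjusted p under 0.05. The median was 0.076 without TBI2 and 0.35 without Sham3. Pik3r1, the regulatory subunit of PI3 kinase, was at 133, 133 and 146 CPM in sham and at 161, 177 and 171 CPM in TBI. The groups did not overlap, as in 4.77% of all genes tested with TBI higher, and the log2 fold change was 0.30 (standard error 0.102, p 0.0223, edgeR adjusted p 0.982). Glul, the glutamine synthetase of astrocytes, was the most abundant gene of the list, at 2139, 877 and 2198 CPM in sham and at 1508, 2227 and 2131 CPM in TBI, with Sham2 far below the rest, and its log2 fold change of 0.17 was -0.15 without Sham2. Mt1, a metallothionein, was at 406, 974 and 413 CPM in sham and at 424, 496 and 498 CPM in TBI, with Sham2 far above the rest, and its log2 fold change of -0.34 was 0.28 without Sham2 and TBI1.

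Of 10 inflammatory genes that glucocorticoids are known to repress, 6 were tested, and all 6 had a lower mean in TBI. Their median log2 fold change was -0.96. The median depended on Sham2, without which it was 0.37, and all 6 genes were highest in Sham2. The median was -0.48 with the replicate number as a block. Some of the 6 were near the floor, with 0 counts for Nos2 in TBI2 and for Ccl2 in Sham3. With a filter of 10 counts in every library, 3 genes were tested and their median was -0.71. Ptgs2, the inducible cyclooxygenase, was at 34.1, 36.7 and 18.3 CPM in sham and at 7.91, 11.8 and 8.51 CPM in TBI. All TBI libraries lay below all sham libraries for Ptgs2, as in 5.45% of all genes tested. The log2 fold change was -1.66 (standard error 0.310, edgeR p 0.00126, edgeR adjusted p 0.982, DESeq2 adjusted p 0.00126), and it was -1.37 without Sham2 and TBI1. Icam1, the leukocyte adhesion molecule, was at 2.57, 10.7 and 2.84 CPM in sham and at 5.83, 4.68 and 3.29 CPM in TBI. Its log2 fold change was -0.22 and became 0.56 without Sham2 and TBI1. Tnf and Il6 had at most 0.498 and 1.42 CPM in any library, both in Sham2, and were not tested.

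**Figure D4:**
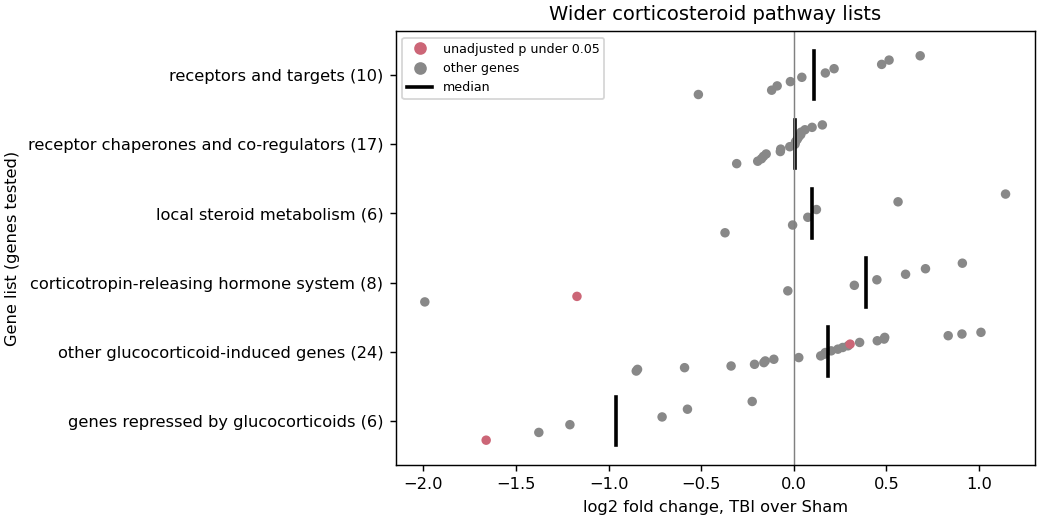
Log2 fold change of TBI over sham (x axis) for each tested gene of the 10 receptors and targets and of 5 wider lists (y axis, with the number of genes tested), with the median of each list as a black bar and genes at an unadjusted p under 0.05 in red. The receptor chaperones lie closest to 0, and the 6 repressed genes all lie below 0, with a median of -0.96 that was 0.37 without Sham2.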

How the data were processed

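RNA from the hippocampus of 3 sham and 3 TBI mice was sequenced, with groups and replicate numbers taken from the sample titles. Per the authors' notes, FastQC, HISAT2 and StringTie were used with GRCm38, and the authors deposited estimated counts for each Ensembl gene, not normalized and in whole numbers. Versions, the annotation release, strandedness and how coverage was turned into counts are not given in the sources used here. The value 4 occurred 5109 times and the value 3 only 2325 times, so single reads cannot be read off the values, and no counting intervals are given. The test had been planned for counts of reads, and these whole-number values entered it as deposited.

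Symbols were matched for 52403 of 52550 identifiers, and loci and exon lengths come from GENCODE vM21. R 4.3.3, edgeR 4.0.16 and DESeq2 1.42.0 were used. Genes kept by filterByExpr entered glmQLFit and glmQLFTest of edgeR with TMM scaling, and p-values were adjusted over all 18795. The fit was tested on simulated data. Standard errors were the fold change on the log2 scale divided by the root of F, and 95% intervals used the t distribution with the fitted degrees of freedom. Replicates were 1 mouse each.

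The 10 genes and the lists were chosen with earlier results of these data known. Named genes were the 10, the 2 most abundant genes of each wider list and those at an unadjusted p under 0.05, and the 3 genes with the pattern closest to the most variable of the 10. C1ql2, Gja1, Gad2, Hsd11b2, Tnf and Il6, and the genes named under other observations, were named after their values were seen. Promoter windows are those of RefSeq on GRCm38.p6. Alternatives were DESeq2, other scalings and filters, counts divided by 4, robust dispersions, other thresholds, the replicate number as a block and each library left out.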

Additional observations from a re-analysis of the deposited data

How the results depend on the processing

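Under all 17 alternative fits and both other thresholds 0 of the 10 genes were called. All genes called numbered 46 with DESeq2's defaults, 43 with DESeq2 on the genes kept by filterByExpr, 0 to 1 with each library left out (1 without TBI1) and 3 without Sham2 and TBI1. In the wider lists DESeq2 called 1 gene with its defaults and 1 on the filtered genes. Of 170 values of single genes, 157 kept their direction and 13 did not, all with libraries left out. Sgk1, Tsc22d3, Zbtb16, Klf9 and Pdk4 kept their direction in every fit. With each library left out, the log2 fold change ran from -0.16 to 0.18 for Nr3c1 (-0.024 without TBI3), from -0.082 to 0.46 for Nr3c2, from -0.46 to 0.086 for Fkbp5 (0.049 without TBI3), from -0.44 to 0.36 for Hsd11b1 (0.27 without Sham1) and from -0.25 to 0.22 for Errfi1 (0.21 without Sham2). Without Sham2 and TBI1 it was -0.19 for Nr3c1, 0.20 for Fkbp5, 0.13 for Hsd11b1 and 0.44 for Errfi1. Genes without overlap numbered 0 to 3 of 10 with each library left out, against 17.5% to 22.8% of all genes tested. Without Sham2 and TBI1 they numbered 4. The difference of the log2 receptor ratio ran from -0.27 to 0.40 with each library left out.

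With the replicate number as a block 0 genes were called, and the log2 fold change of Sgk1 was 0.76. The labels give same-numbered libraries a shared number and no stated pairing. Their deviations from the group means correlated at -0.0996, -0.0650 and 0.153, and not every library correlated best with its own number. With 3 libraries per group, these correlations cannot settle whether same-numbered mice shared a batch. Each of the 10 genes had at least 288 counts in each library. Counting error was not measured.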

Other observations

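Of the 24 tested genes on the list of other glucocorticoid-induced genes, 8 were highest in Sham2, against 23.7% of all genes tested, and 6 were lowest there, against 23.0%. The genes named here were chosen after their values were seen. Lcn2, a secreted iron-binding protein of reactive astrocytes, was at 15.3 CPM in Sham2, against 0.173 and 0.469 CPM in Sham1 and Sham3 and 1.35 to 8.22 CPM in TBI. Cdkn1a, the cell cycle inhibitor p21, was at 91.9 CPM in Sham2, against 4.49 and 13.5 CPM in the other sham libraries and 32.1 to 33.2 CPM in TBI. Cebpd, an acute-phase transcription factor, was at 87.4 CPM in Sham2 and between 17.1 and 27.2 CPM in the other 5 libraries. In the opposite direction, Arrdc3 was at 22.4 CPM in Sham2, against 55.5 to 82.9 CPM in the other libraries, and Fam107a was at 223 CPM, against 439 to 722 CPM. On the list of repressed genes, the chemokine gene Ccl2 was at 12.7 CPM in Sham2 and at most 3.01 CPM elsewhere. In the same library Tsc22d3 was at its lowest (38.1 CPM) and Fkbp5 was second to TBI2 (97.9 CPM).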
